A study of Mus musculus with 5 samples.

Results

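The 10 genes described here mark neurons and were followed in RNA from brain microvascular fragments: *Snap25*, *Syt1*, *Nefl*, *Nefm*, *Nefh*, *Gad1*, *Gad2*, *Slc17a7*, *Rbfox3* and *Tubb3*. They were picked by name, as genes used in textbooks to recognise neurons, and make up 10 of the 34615 gene symbols in the files. Fragments came from 3 WT and 2 heterozygous Ins2-AKITA mice, all male, on a background labelled C57BL6 (C57Bl/6-J in the methods) and between 26 and 38 weeks of age. The mutant allele of the insulin gene *Ins2* damages pancreatic beta cells, and carriers become hyperglycemic. WT mice were littermates of the carriers. Collagenase-digested brain was strained and vessel pieces were pulled out with magnetic beads that bind PECAM1, a surface protein of endothelial cells. The captured pieces were washed on the beads before lysis. Each library came from 1 mouse.

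A neuron speaks to its targets through synaptic vesicles that fuse with the membrane when calcium enters. SNAP25 is a part of the SNARE complex that drives this fusion, and synaptotagmin 1 (SYT1) is the calcium sensor. VGLUT1, encoded by *Slc17a7*, loads glutamate into vesicles of excitatory cortical neurons, whereas GAD67 (*Gad1*) and GAD65 (*Gad2*) make the inhibitory transmitter GABA. Light, medium and heavy neurofilament proteins (*Nefl*, *Nefm*, *Nefh*) assemble into the filaments that fill large axons. NeuN, encoded by *Rbfox3*, is a splicing regulator of neuronal nuclei, and *Tubb3* encodes a beta-tubulin typical of neurons.

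All 10 genes were measured above 0 in all 5 mice, and none differed detectably between the genotypes. Limma called 0 of the 10 genes at an adjusted p of 0.05, with adjusted p values from 0.90 to 0.95, and 0 of them had an unadjusted p under 0.05. Among all 16286 genes tested, 0.0246% passed the adjusted and 4.46% the unadjusted threshold. Levels were estimated higher in Ins2-AKITA than in WT mice for 5 of the genes and lower for the other 5. The median difference of the 10 was 0.06 on the log2(FPKM + 1) scale, beside -0.03 for all genes tested. Each 95% interval of the difference included 0, and the intervals together reached from 0.48-fold to 2.04-fold. The lower end belonged to *Nefm* and the upper end to *Gad2*, and single genes had tighter intervals, such as 0.67-fold to 1.31-fold for *Syt1* and 0.65-fold to 1.26-fold for *Nefh*. The design sets 3 mice against 2, for which an exact permutation test cannot go below p = 0.1. FPKM, fragments scaled to exon length and library size, is a value per length, so levels can be set side by side between genes. Such comparisons are approximate for genes with transcripts of unequal length, such as *Rbfox3* with 11 of 301 to 3150 nucleotides. In bulk RNA, fewer cells of a type and less RNA per cell cannot be told apart.

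**Figure D1:**
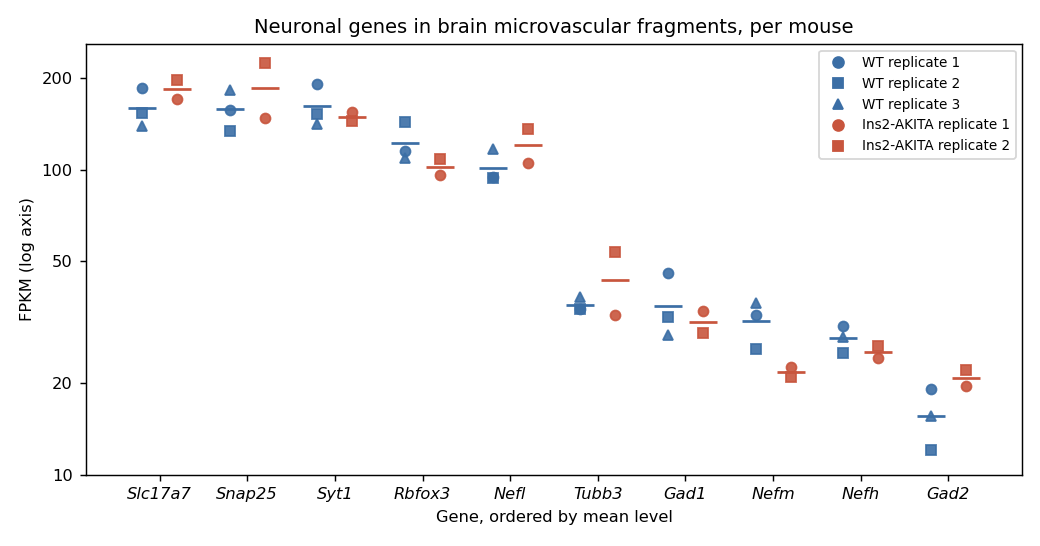
FPKM of the 10 neuronal genes in each mouse, on a log axis, with genes ordered by their mean level. Each point is 1 mouse, blue for WT and red for Ins2-AKITA, and short lines are group means. A group of 5 genes from *Slc17a7* to *Nefl* lies well above a group of 5 from *Tubb3* to *Gad2*.

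Neuronal transcripts were abundant in these vessel preparations. *Slc17a7* had the highest mean level over the 5 mice, 169 ± 23.3 FPKM (SD, n = 5), followed by *Snap25* with 169 ± 35.2, *Syt1* with 156 ± 19.7, *Rbfox3* with 114 ± 17.7 and *Nefl* with 109 ± 17.5. These neighbours overlapped in their range over mice, although *Syt1* exceeded *Rbfox3* in each of the 5 mice. Then came a gap, since even the lowest *Nefl* value lay above the highest value of *Tubb3* (39.1 ± 8.30 FPKM). *Gad1* (34.2 ± 6.93), *Nefm* (27.9 ± 6.84) and *Nefh* (27.0 ± 2.63) overlapped with one another, and *Gad2* was lowest with 17.7 ± 3.89 FPKM, below *Nefh* in 5 of 5 mice. *Slc17a7* lay above 97.6% of the genes tested and *Gad2* above 66.7%. For comparison, the endothelial capture antigen gene *Pecam1* had 92.8, 91.0 and 65.8 FPKM in WT mice against 63.1 and 58.3 in Ins2-AKITA mice. *Snap25* thus exceeded *Pecam1* in every library, with a ratio between 1.47 and 3.82. This did not hold for all endothelial markers. In WT replicate 2, *Cldn5* (174 FPKM) and *Flt1* (170 FPKM) exceeded *Snap25* (133 FPKM), and both lay below *Snap25* in the other libraries.

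The spread between mice was modest. From the lowest to the highest mouse the genes varied between 1.27-fold for *Nefh* and 1.83-fold for *Gad2*. Summed over the 10 genes, the values of WT replicates 1 to 3 were 905, 807 and 836 FPKM, and those of the Ins2-AKITA pair 807 and 960.0. Group means came to 849 ± 50.4 (SD, n = 3) and 883 ± 108 (SD, n = 2), and the genotypes overlapped. For 5 genes the highest mouse was Ins2-AKITA replicate 2, whereas Ins2-AKITA replicate 1 was the highest for none and the lowest for 3.

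The vesicle fusion genes overlapped between the genotypes. *Snap25* (chromosome 2 of NCBIM37 from 136539189 to 136608164) was measured at 157, 133 and 182 FPKM in WT mice against 147 and 223 in Ins2-AKITA mice. The highest and the second lowest value thus both came from Ins2-AKITA mice. Its difference was 0.21 on the log2 scale (standard error 0.25, limma adjusted p = 0.91), and without Ins2-AKITA replicate 2 it was -0.08. *Syt1* (chromosome 10 from 107934706 to 108448038) was measured at 190.3, 152 and 141 FPKM in WT mice against 154 and 144 in Ins2-AKITA mice, so that both Ins2-AKITA values lay inside the WT range. Its difference was -0.10 (standard error 0.20, limma adjusted p = 0.95). It became 0.03 without WT replicate 1, the mouse with the highest *Syt1*. Of a list of 13 other vesicle release genes, none passed the adjusted threshold, 11 were estimated higher and 2 lower, and the median difference was 0.19. Both Ins2-AKITA values were above all WT values for 3 of the 13 (*Syn2*, *Sv2b* and *Rab3a*, named after their values were seen) and below for 0, beside 9.24% and 10.3% of all genes tested. Complexins clamp and trigger the SNARE complex, and *Cplx2*, the highest of the list, had 172, 186 and 254 FPKM in WT mice against 215 and 294 in Ins2-AKITA mice. *Cplx1* had the largest positive difference, 0.46 (standard error 0.27, limma adjusted p = 0.90), and *Sv2a*, a vesicle glycoprotein gene, the largest negative one, -0.34 (standard error 0.25).

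The neurofilament subunits had estimates of both signs, none of which passed a threshold. *Nefl* (chromosome 14 from 68701920 to 68707152, plus strand) was measured at 94.2, 93.6 and 116 FPKM in WT mice against 105 and 135 in Ins2-AKITA mice, a difference of 0.24 (standard error 0.21, limma adjusted p = 0.90). Ins2-AKITA replicate 1 fell within the WT range, and without Ins2-AKITA replicate 2 the *Nefl* difference was 0.06. *Nefm* (chromosome 14 from 68700647 to 68742903, minus strand) was measured at 33.3, 25.8 and 36.6 FPKM in WT mice against 22.5 and 21.0 in Ins2-AKITA mice. Here both Ins2-AKITA values lay below all WT values, which was also the case for 10.3% of all genes tested. The difference was -0.52 (standard error 0.22, 95% interval -1.06 to 0.02). Limma gave p = 0.056 before and 0.90 after adjustment, and the exact two-sided permutation test p = 0.2. *Nefh* (chromosome 11 from 4838757 to 4848067) was the steadiest gene, with 30.8, 25.2 and 28.3 FPKM in WT mice against 24.2 and 26.5 in Ins2-AKITA mice. Its difference was -0.14 (standard error 0.20, limma adjusted p = 0.92).

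Ratios of 2 genes within a mouse do not depend on how libraries are scaled. The ratio of *Nefm* to *Nefl* was 0.354, 0.275 and 0.315 in WT mice against 0.215 and 0.155 in Ins2-AKITA mice, and that of *Nefh* to *Nefl* was 0.327, 0.269 and 0.243 in WT mice against 0.230 and 0.196 in Ins2-AKITA mice. Both ratios were lower in each Ins2-AKITA mouse than in any WT mouse. They share *Nefl* as denominator and so are not separate observations, and *Nefh* by itself overlapped between the genotypes. These ratios were formed after the values had been seen and carry no test. *Nefl* and *Nefm* overlap in the annotation, and the 2 genes share 1108 nucleotides of exon on opposite strands. The libraries were stranded, but whether the counting used strand is not given in the sources used here, so reads from this stretch could have been credited to either gene.

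**Figure D2:**
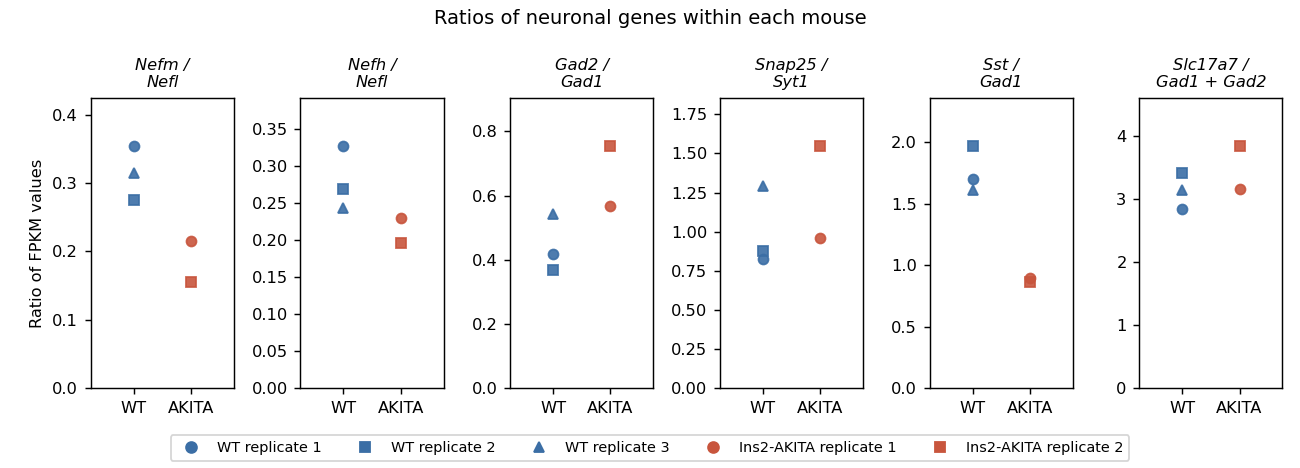
Ratio of the FPKM values of the named genes within each mouse, each panel with its own axis from 0. Points are mice, blue for WT and red for Ins2-AKITA. *Nefm* to *Nefl*, *Nefh* to *Nefl* and *Sst* to *Gad1* were lower and *Gad2* to *Gad1* higher in both Ins2-AKITA mice than in all WT mice, while *Snap25* to *Syt1* and *Slc17a7* to *Gad1* plus *Gad2* overlapped.

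Other genes of the neuronal cytoskeleton and axon gave the same mixed result. Of 10 listed, 9 were tested, none passed the adjusted threshold, and 5 were estimated higher and 4 lower. *Prph*, a filament gene of peripheral neurons, had a mean FPKM under 1 and was not tested. *Map2*, a microtubule protein gene of dendrites, was the highest with 702, 677 and 1012 FPKM in WT mice against 803 and 1084 in Ins2-AKITA mice. *Gap43*, a growth cone protein gene, had the largest positive difference (0.41, standard error 0.26), which was 0.12 without Ins2-AKITA replicate 2 and 0.70 without Ins2-AKITA replicate 1. The largest negative one was that of *Ina*, which encodes a further neurofilament subunit, with 40.3, 39.4 and 37.0 FPKM in WT mice against 30.6 and 34.8 in Ins2-AKITA mice. Both its Ins2-AKITA values were below all WT values, as were those of 10.3% of all genes tested. The *Ina* difference was -0.25 (standard error 0.18, limma adjusted p = 0.90, exact permutation p = 0.1).

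*Slc17a7* marks excitatory neurons and *Gad1* and *Gad2* inhibitory ones. RefSeq promoter windows of the 3 genes (GRCm38.p6, plus strand, the 250 bases before the annotated start) are shown because *Gad1* and *Gad2* encode enzymes for 1 reaction. Their estimates had opposite signs, but neither gene differed detectably between the genotypes. Capitals mark matches on either strand to TATAAA, the letters of the TATA box, to GGGCGG, known as the GC box, to CCAAT, known as the CAAT box, and to GGACAG, the right-hand part of RE1, which is the element bound by the neuronal repressor REST.
*Gad1*, chr2:70561879-70562128: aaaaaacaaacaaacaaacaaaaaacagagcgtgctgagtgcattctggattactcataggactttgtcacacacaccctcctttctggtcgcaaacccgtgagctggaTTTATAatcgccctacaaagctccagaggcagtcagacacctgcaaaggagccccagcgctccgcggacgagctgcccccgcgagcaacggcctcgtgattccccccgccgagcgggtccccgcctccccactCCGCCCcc
*Gad2*, chr2:22622077-22622326: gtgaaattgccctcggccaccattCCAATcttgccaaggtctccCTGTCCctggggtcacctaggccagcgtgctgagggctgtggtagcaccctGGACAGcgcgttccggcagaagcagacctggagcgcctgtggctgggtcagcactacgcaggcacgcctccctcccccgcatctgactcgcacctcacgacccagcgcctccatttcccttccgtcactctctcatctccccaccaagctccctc
*Slc17a7*, chr7:45163671-45163920: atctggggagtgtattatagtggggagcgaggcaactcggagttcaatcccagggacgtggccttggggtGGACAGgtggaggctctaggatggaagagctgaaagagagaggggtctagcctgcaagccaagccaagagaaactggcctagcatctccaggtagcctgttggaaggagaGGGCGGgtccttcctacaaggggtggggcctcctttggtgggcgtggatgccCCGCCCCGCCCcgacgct

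No searched motif was present in all 3 windows. *Gad1* held a TATAAA match, found in 12.4% of the 32851 windows of this length in the table, and a GC box, found in 32.7%. *Gad2* held neither, but 2 matches to GGACAG and 1 to CCAAT, which occur in 18.7% and 33.9% of all windows. *Slc17a7* had 1 GGACAG match and 3 GC boxes, 2 of them overlapping. The cAMP response element TGACGTCA and the left-hand RE1 part CAGCACC, searched as well, were in none of the 3 as exact letters. The search did not allow mismatches. In the *Gad2* window TAGCACC, 1 base off the left-hand part, stands 2 bases before the GGACAG match on the printed strand. Such matches are letters in a window and say nothing on binding in these samples.

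Transmitter genes overlapped between genotypes with 1 exception. *Slc17a7* (chromosome 7 of NCBIM37 from 52419291 to 52431508) was measured at 185, 153 and 139 FPKM in WT mice against 171 and 197 in Ins2-AKITA mice, a difference of 0.21 (standard error 0.20, limma adjusted p = 0.90) that ranged from 0.11 to 0.33 with 1 mouse left out, lowest without Ins2-AKITA replicate 2. *Gad1* (chromosome 2 from 70391129 to 70440071) was measured at 45.8, 32.9 and 28.7 FPKM in WT mice against 34.3 and 29.2 in Ins2-AKITA mice, so that both Ins2-AKITA values lay within the WT range. The difference was -0.14 (standard error 0.25, limma adjusted p = 0.94), and 0.04 without WT replicate 1. *Gad2* (chromosome 2 from 22477725 to 22549394) was measured at 19.2, 12.1 and 15.6 FPKM in WT mice against 19.5 and 22.0 in Ins2-AKITA mice. Both Ins2-AKITA values exceeded all WT values, by little in the case of replicate 1, and this ordering held for 9.24% of all genes tested. Its difference was 0.41 (standard error 0.26, 95% interval -0.21 to 1.03, limma adjusted p = 0.90, exact permutation p = 0.2). *Gad2* to *Gad1* gave a ratio of 0.418, 0.367 and 0.543 in WT mice against 0.568 and 0.754 in Ins2-AKITA mice, which was not tested. The excitatory to inhibitory ratio, *Slc17a7* over the sum of *Gad1* and *Gad2*, was 2.85, 3.41 and 3.15 in WT mice against 3.17 and 3.84 in Ins2-AKITA mice and overlapped.

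Among 10 further genes of inhibitory neurons, 3 were estimated higher and 7 lower in Ins2-AKITA mice, with a median difference of -0.37, and 0 passed the adjusted threshold. Their sum was 365, 278 and 281 FPKM in WT mice against 260.0 and 225 in Ins2-AKITA mice, without overlap. That sum was not tested and holds *Sst*, whose difference was the lowest of the list. *Sst* made up 64.6 of the 278 FPKM in WT replicate 2 and 30.8 of the 260.0 FPKM in Ins2-AKITA replicate 1. Without *Sst* the sum of the list overlapped between the genotypes. Both Ins2-AKITA values were below all WT values for 2 of the 10 and above for 0, beside 10.3% and 9.24% of all genes tested. *Sst* encodes the neuropeptide somatostatin of a class of GABA neurons. It had 77.9, 64.6 and 46.1 FPKM in WT mice against 30.8 and 25.1 in Ins2-AKITA mice. Both its Ins2-AKITA values lay well below all WT values, and 10.3% of all genes tested were also below. Its difference of -1.12 (standard error 0.27) had p = 0.0051 in limma before and 0.90 after adjustment, and an exact permutation p = 0.1. Relative to *Gad1* in the same mouse, *Sst* stood at 1.70, 1.97 and 1.61 in WT mice against 0.898 and 0.860 in Ins2-AKITA mice. This ratio carries no test, and *Sst* was named as the lowest of its list. *Dlx1*, a transcription factor gene of inhibitory neurons, had the largest positive difference (0.35, standard error 0.34). *Pvalb* and *Npy*, chosen for mention after their values were seen, overlapped between the genotypes, with differences of -0.86 (standard error 0.49) and -0.48 (standard error 0.31).

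Of 12 listed excitatory and postsynaptic genes, 11 were tested, 6 were estimated higher and 5 lower, the median difference was 0.01, and 0 passed the adjusted threshold. Both Ins2-AKITA values were above all WT values for 2 of the 11 and below for 1, beside 9.24% and 10.3% of all genes tested. The summed list was at 1817, 1796 and 1911 FPKM in WT mice against 1948 and 2268 in Ins2-AKITA mice, without overlap. High genes weigh most in this sum, which was not tested, while the median difference of single genes was 0.01. *Camk2a*, a kinase gene of excitatory synapses, was the highest of the list with 849, 854 and 955 FPKM in WT mice against 974 and 1220 in Ins2-AKITA mice. The Ins2-AKITA values were both above the WT values (difference 0.30, standard error 0.23, limma adjusted p = 0.90, exact permutation p = 0.1). The largest negative difference was that of *Neurod2*, a transcription factor gene, at -0.31 (standard error 0.24).

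**Figure D3:**
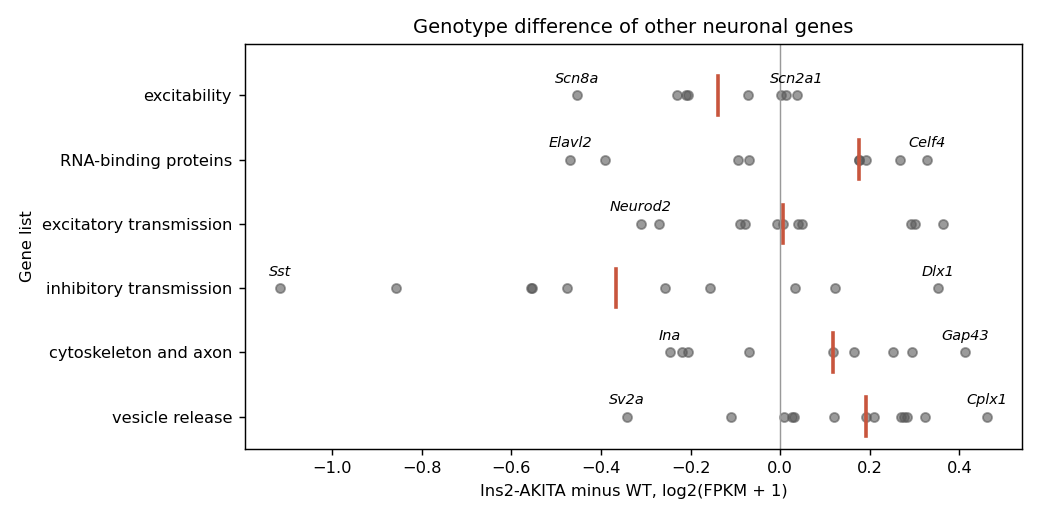
Genotype difference on the log2(FPKM + 1) scale for the other neuronal genes, grouped by list. Each point is 1 gene, red bars are list medians, and the extremes of the lists described in the text are named. None of these genes passed the adjusted threshold. *Sst* at -1.12 was the lowest.

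*Rbfox3* (chromosome 11 from 118351074 to 118772911) was measured at 115, 144 and 109 FPKM in WT mice against 95.8 and 108 in Ins2-AKITA mice. Both Ins2-AKITA values were below all WT values, replicate 2 by about 1 FPKM unit, and this ordering held for 10.3% of all genes tested. The difference was -0.25 (standard error 0.20, limma adjusted p = 0.90, exact permutation p = 0.2). Its relatives *Rbfox1* and *Rbfox2* went the other way by estimate, at 0.27 (standard error 0.19) and 0.18 (standard error 0.17). In the list of 9 neuronal RNA-binding protein genes, 5 were estimated higher and 4 lower. It ranged from *Elavl2* (-0.47, standard error 0.41), with 8.10 FPKM in Ins2-AKITA replicate 2 and 16.8 to 22.4 in the other mice, to *Celf4* (0.33, standard error 0.21). No gene of this list passed the adjusted threshold.

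*Tubb3* (chromosome 8 from 125935324 to 125945915) was nearly constant in WT mice, with 34.9, 35.0 and 38.3 FPKM, and was at 33.5 and 53.6 in Ins2-AKITA mice. Ins2-AKITA mice were thus both the lowest and the highest. The difference was 0.23 (standard error 0.24, limma adjusted p = 0.90) and turned to -0.10 without Ins2-AKITA replicate 2. A list of 8 genes headed neuronal excitability also held the enolase gene *Eno2* and the surface glycoprotein gene *Thy1*. This list had a median difference of -0.14, with 3 estimated higher, 5 lower and 0 past the adjusted threshold. The sodium channel genes *Scn8a* (-0.45, standard error 0.33) and *Scn2a1* (0.04, standard error 0.23) were the extremes.

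**Figure D4:**
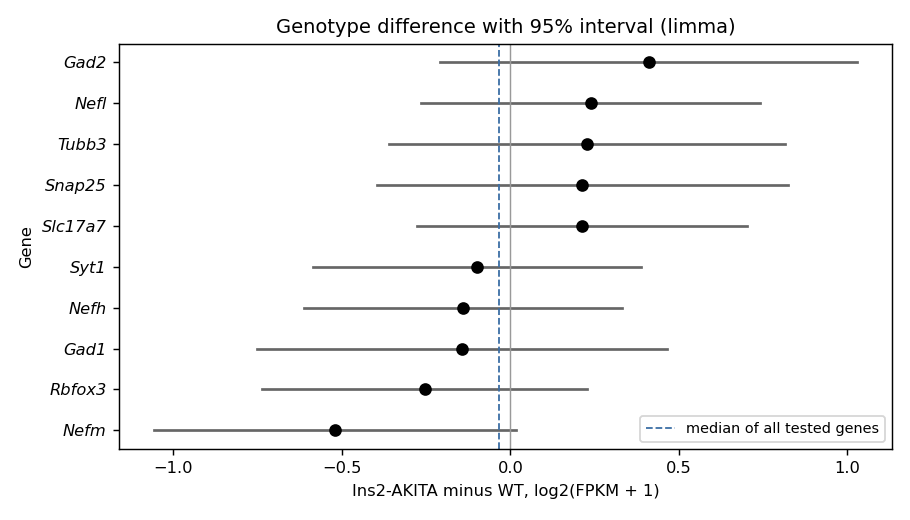
Ins2-AKITA minus WT difference of each of the 10 genes on the log2(FPKM + 1) scale. Points are limma estimates, bars 95% intervals, and the dashed line is the median of all tested genes at -0.03. All 10 intervals include 0, and *Nefm* at -0.52 and *Gad2* at 0.41 are the extremes.

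Across all 6 lists, 60 of 62 other neuronal genes were tested. By estimate 33 were higher and 27 lower, with a median of 0.01, and 1 of them, *Sst*, had an unadjusted p under 0.05 in limma, beside 4.46% of all genes tested. Both Ins2-AKITA values were above all WT values for 8 of the 60 and below for 5. For the 10 genes first described these counts were 1 and 2, and over all genes tested the shares were 9.24% above and 10.3% below.

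Depth set the counting error of single values. The number of fragments per mouse, worked out from the step between low FPKM values, lay between 1122069 and 2861009, with WT replicate 3 deepest. *Nefl*, *Slc17a7* and *Tubb3* have 1 annotated transcript each, so their fragments could be derived. *Slc17a7* rested on 520.5 to 1080.0 fragments, *Nefl* on 342.5 to 1049 and *Tubb3* on 61.9 to 179, which gives a counting error of at most 4.38%, 5.40% and 12.7% of the value. Such errors cover counting alone. Of the 50-base stretches in the protein-coding transcripts of each of the 10 genes, at most 2.53% also occurred, on the same strand, in a transcript of another gene, the maximum being *Gad1* with its pseudogene *Gad1-ps*. The exon stretch that *Nefl* and *Nefm* share on opposite strands is not covered by this count.

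Markers of other cells were read beside the neuronal genes. Endothelial markers, a list of 10, summed to 544, 792 and 445 FPKM in WT mice against 487 and 393 in Ins2-AKITA mice, and 9 of the 10 were estimated lower in Ins2-AKITA mice. The 4 smooth muscle markers summed to 212, 249 and 227 FPKM in WT mice against 166 and 129 in Ins2-AKITA mice, and all 4 were below every WT mouse, as were 10.3% of all genes tested. Astrocyte markers, a list of 8, summed to 2205, 2629.8 and 3063 FPKM in WT mice against 3456 and 4089 in Ins2-AKITA mice, and all 8 were estimated higher. Oligodendrocyte, microglia and pericyte sums overlapped, with 1933 to 2624 and 2103 to 2314 FPKM, 118 to 162 and 122 to 133 FPKM, and 197 to 246 and 171 to 221 FPKM in WT and Ins2-AKITA mice. No marker of these lists was at 0 in any mouse, and none passed the adjusted threshold in limma, while 1 endothelial, 3 smooth muscle and 1 astrocyte marker had an unadjusted p under 0.05, beside 4.46% of all genes. Whether this mixture takes part in the neuronal values was not tested.

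**Figure D5:**
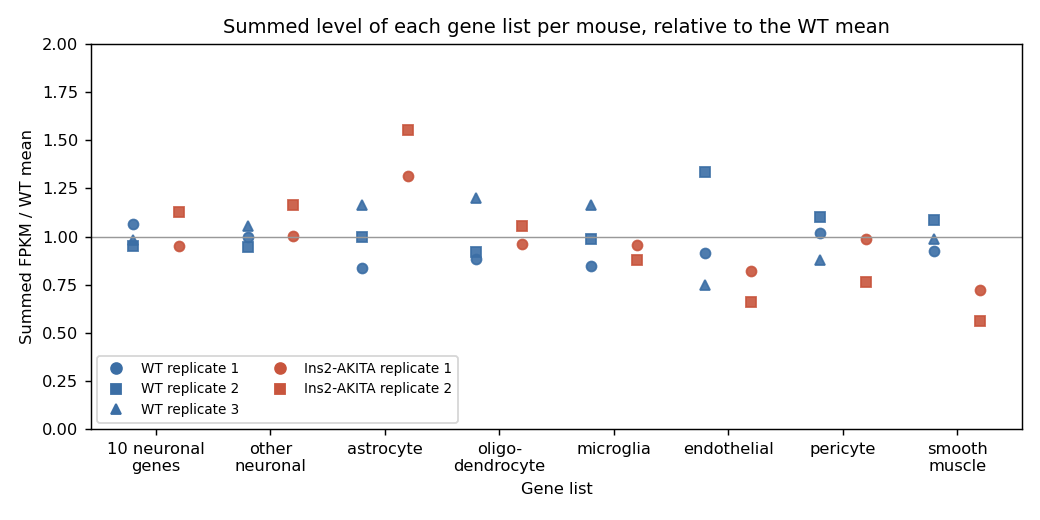
Summed FPKM of each gene list per mouse, divided by the WT mean of that list. Blue points are WT and red points Ins2-AKITA mice. The sum of the 10 neuronal genes overlaps between the genotypes, astrocyte sums are higher and smooth muscle sums lower in both Ins2-AKITA mice, and endothelial sums spread widely among WT mice.

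Relative to endothelial RNA, the neuronal genes overlapped as well. The sum of the 10 genes was 1.66, 1.02 and 1.88 times the endothelial sum in WT and 1.66 and 2.44 times in Ins2-AKITA mice. WT replicate 2, with the highest endothelial sum, had the lowest ratio. When each mouse was scaled to its endothelial markers, the median difference of the 10 genes rose to 0.43 and that of all genes tested to 0.30. Both Ins2-AKITA values of *Nefm* and *Rbfox3* then no longer lay below all WT values, while *Gad2* remained above and *Sst* below. With TPM, which gives every library an equal FPKM total, the median over all genes became 1.07. Protein-coding genes held 3.09%, 3.20% and 11.0% of the FPKM total in WT libraries and 9.76% and 27.5% in Ins2-AKITA libraries. Under TPM all 10 genes were estimated higher, *Nefm* included (0.98), and 0 passed the adjusted threshold.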

How the data were processed

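The submitters' notes and the study's methods give depletion of ribosomal RNA, stranded total RNA libraries, TopHat2 2.0.4 on NCBIM37, Picard 1.92 against duplicates and Cufflinks 2.2.1 for tests. The authors deposited FPKM values, 1 per Ensembl identifier and mouse. The Ensembl release is not given in the sources used here. Dropping duplicates can lower high values of short genes.

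Of 37982 identifiers, 37197 matched GENCODE vM1 (NCBIM37). Rows with the same symbol were summed. The 16286 symbols whose mean FPKM reached 1 were tested on log2(FPKM + 1) with limma 3.58.1 in R 4.3.3 (lmFit, eBayes with trend), genotype as the only factor, two-sided, Benjamini-Hochberg over all of them. Fold changes on this scale understate low genes. Exact permutation tests ran over all 10 groupings of the mice. Python 3.11.15 did the rest. The limma step was tested on simulated data. Library numbers say nothing on shared cages or days, so p-values measure the spread between these mice.

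Fragments per mouse were estimated from transcripts over 800 nucleotides, of which 98.0% to 98.5% of values below 3.5 fragments fell within 0.05 of a whole number. Of 131 listed symbols, 2 were matched through an older name and 1 (*Slc18a3*) was not analysed here. Promoter windows, found for 6 of the 10 genes, come from RefSeq (GRCm38.p6).

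The 10 genes and all lists were chosen with earlier results of these data known. Besides the 10, the text names from each neuronal list the highest gene and both extremes, and the 5 genes with the most similar profile. Some genes that this rule picks are not reported here. As alternatives the results were recomputed with a pseudocount of 0.1, with no filter, a mean FPKM of at least 5, TPM, scaling to the protein-coding sum, by median ratios or to endothelial markers, a constant prior variance, a replicate block, the highest row per symbol and each mouse left out. Without an Ins2-AKITA mouse, the other is assumed to vary like the WT mice.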

Additional observations from a re-analysis of the deposited data

How the results depend on the processing

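None of the 10 genes and none of the other neuronal or regional genes passed an adjusted p of 0.05 under any of the 15 alternatives, and the lowest adjusted p of the 10 genes was 0.27, under TPM. *Nefm*, with an exact permutation p = 0.2, had an unadjusted limma p = 0.025 without WT replicate 2 and 0.044 both with no filter and with the protein-coding sum, and its adjusted p ranged from 0.35 to 1 over the alternatives. Unadjusted limma p was also under 0.05 for *Gad2* under TPM (0.047) and for *Tubb3* without Ins2-AKITA replicate 1 (0.039), both with higher estimates in Ins2-AKITA mice. The count of all genes called (0 higher, 4 lower) became 34 and 1 with no filter, 58 and 30 with TPM, 1 and 7 with endothelial scaling and 1 and 2 with a constant prior variance, and 2 lower with a mean FPKM of at least 5. With 1 mouse left out it ranged from 0 to 10 higher and from 1 to 6 lower, with 10 higher without Ins2-AKITA replicate 2, 3 higher and 1 lower without Ins2-AKITA replicate 1, and 2 lower without WT replicate 2. The ratio of the summed FPKM of the 10 genes, Ins2-AKITA to WT, was 1.04, and 3.34 with TPM, 1.34 with endothelial scaling and 0.95 to 1.13 with 1 mouse left out. Their median difference was 1.62 with TPM, 0.43 with endothelial scaling and -0.07 to 0.12 with 1 mouse left out.

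TPM adds one factor per mouse, and under it these differences became positive: *Syt1* 1.58, *Nefm* 0.98, *Nefh* 1.32, *Gad1* 1.38, *Rbfox3* 1.41, *Sv2a* 1.21, *Ina* 1.29, *Sst* 0.53, *Neurod2* 1.05, *Elavl2* 0.90, *Scn8a* 1.16, *Cbln1* 0.51, *Penk* 1.12 and *Th* 0.040. With endothelial scaling *Syt1* became 0.28, *Nefh* 0.22, *Gad1* 0.22, *Rbfox3* 0.12, *Sv2a* 0.027, *Ina* 0.12 and *Neurod2* 0.043. With 1 mouse left out, *Syt1* ranged from -0.19 to 0.025 and *Gad1* from -0.29 to 0.044, both positive without WT replicate 1. *Snap25* ranged from -0.083 to 0.51, *Tubb3* from -0.10 to 0.56 and *Elavl2* from -1.15 to 0.21, with a changed sign without Ins2-AKITA replicate 2. *Scn2a1* ranged from -0.11 to 0.17, negative without WT replicate 3 or Ins2-AKITA replicate 2. *Scn2a1* was -0.0085 with the protein-coding sum. The causes were not tested.

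Both genotypes are numbered in the labels, but nothing pairs the mice. Deviations from the group means correlated over genes at 0.05 and -0.03 for same-numbered mice. With 2 Ins2-AKITA mice these deviations mirror each other, so each WT mouse had equal and opposite correlations with the 2. For WT replicate 3 they were -0.09 and 0.09. Such values cannot show whether mice were paired. With the replicate block 5 genes were called lower and 0 higher, 0 of the 10 among them. The median difference of the 10 genes was -0.01, *Nefm* was at -0.42 and *Scn2a1* turned to -0.11. WT replicate 3 has no partner and adds nothing in that fit.

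With 1122069 to 2861009 fragments per mouse, low genes such as *Th* and *Cbln1* rest on few fragments.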

Other observations

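Genes typical of neurons of particular brain regions were at unequal levels, also within 1 region. *Ppp1r1b*, which encodes the dopamine-regulated phosphatase inhibitor DARPP-32 of striatal neurons, had 144, 130.3 and 144 FPKM in WT mice against 141 and 154 in Ins2-AKITA mice, close to *Syt1*. *Penk*, which encodes the precursor of enkephalin peptides, had 111, 112 and 85.6 FPKM in WT mice against 67.0 and 72.5 in Ins2-AKITA mice. Both its Ins2-AKITA values were below all WT values, as were those of 10.3% of all genes tested. Its difference was -0.54 (standard error 0.20), with p = 0.032 in limma before and 0.90 after adjustment and an exact permutation p = 0.2. The dopamine receptor gene *Drd1a* was low, between 2.98 and 3.76 FPKM, and *Drd2*, named after its values were seen, lay between 4.97 and 8.38 FPKM. Cerebellar genes were low as well: *Calb1*, a calcium buffer gene that also marks neurons elsewhere, had 7.01, 6.09 and 6.91 FPKM in WT mice against 12.9 and 7.20 in Ins2-AKITA mice (difference 0.48, but 0.10 without Ins2-AKITA replicate 1 and 0.86 without Ins2-AKITA replicate 2), and *Cbln1* lay between 1.80 and 3.95 FPKM. *Th*, the rate-limiting enzyme gene of dopamine synthesis, had 1.57, 2.97 and 1.35 FPKM in WT, was listed at 0 in Ins2-AKITA replicate 1 and had 0.971 in replicate 2. Of the 8 tested genes of these regional lists, 0 passed the adjusted threshold, 3 were estimated higher and 5 lower.

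The mean profile of the 10 genes over the 5 mice, centred on its own mean in log2(FPKM + 1), was 0.11, -0.12 and -0.01 in WT mice against -0.09 and 0.10 in Ins2-AKITA mice. Of 11253 other genes with a mean FPKM of at least 5, *Iqsec3*, *Eif1a*, *Wdr7* and *Shank3* were among the 5 closest to it, with a root mean square difference of 0.02 to 0.03 over the 5 mice. *Shank3*, a scaffold gene of excitatory synapses, had 126, 112 and 121 FPKM in WT mice against 109 and 129 in Ins2-AKITA mice. The 10 genes themselves were between 0.08 (*Nefh*) and 0.30 (*Nefm*) from their mean profile, and the median of the other genes was 0.30. This likeness rests on 5 libraries.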
